A study of Homo sapiens with 6 samples.

Results

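KRT8, KRT19, EPCAM, VIM and CD44 are genes by which epithelial and mesenchymal cells are commonly told apart, and their transcripts were followed here through depletion and induction of LIN28B. The 5 genes were chosen by name and are all represented among the 11584 genes tested, each by a single probe set, a group of short oligonucleotides on an Affymetrix Human Genome U133 Plus 2.0 array. LIN28B binds RNA: it holds back the maturation of let-7 microRNAs and associates with a large number of mRNAs. RNA came from HEK293 cells, a line of embryonic kidney origin, in the T-REx Flp-In version into which a doxycycline-inducible LIN28B gene with a FLAG/HA tag had been built. All 3 groups carry that transgene, and each has 2 arrays. Knockdown cells were transfected with siRNA against LIN28B with the transgene not induced. Induced cells were mock transfected and the transgene was switched on. Cells not induced were mock transfected and the transgene was left off. No array of cells given a non-targeting siRNA was used here, so siRNA transfection as such and loss of LIN28B cannot be told apart. Induced cells also differ from both other groups by the doxycycline used for induction, which cannot be told apart from the transgene. Nothing in the labels says that replicates were separate cultures, and p-values therefore reflect only the spread of these arrays, possibly technical.

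Keratins and vimentin are intermediate filament proteins, the ropelike polymers of the cytoskeleton. KRT8 is a type II keratin that pairs with type I keratins such as KRT18 and KRT19 in simple epithelia, while VIM is the type III filament protein of mesenchymal cells and of most cultured lines. EPCAM is a membrane protein of epithelial cells that mediates adhesion and can be cleaved to release a signalling fragment. CD44 is the main receptor for hyaluronan, links the matrix to the actin cortex through ERM proteins and is widely used as a marker of mesenchymal and stem-like states. HEK293 cells, although derived from kidney, also express filament genes of neurons.

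All 5 genes differed between the knockdown and the cells not induced, in mixed directions. KRT8 and EPCAM were higher, and KRT19, VIM and CD44 were lower, so that the keratins moved apart from each other while VIM and CD44, the genes usually read as mesenchymal, both fell. The called share is 5 of 5, beside 28.0% of all genes tested (13.5% higher and 14.5% lower), at a limma adjusted p under 0.05. The members were chosen with results of these data known, so this share is a description. It includes CD44, which had to be higher on some mock arrays to be in the table, so its call is no support for a fall. The call of VIM depends on the processing, as given below. Values below are the authors' log2 expression values, on which a difference of 1 is a doubling. They compare arrays for a given gene and not different genes with each other. In bulk RNA, a shift in the share of cells and a shift in RNA per cell cannot be told apart.

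The depletion itself was clear in the arrays. LIN28B read 7.51 and 7.53 on the knockdown arrays, against 10.02 and 9.85 on the arrays of cells not induced and 10.15 and 10.11 on the induced arrays. Its level in the knockdown was 18.7% of that in cells not induced. Array medians lay between 7.126 and 7.177. Within a group, the arrays had a Pearson's r of 0.9899 to 0.9937 over all probe sets, a description since probe sets are no replicates.

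KRT8 had log2 values of 8.25 and 8.20 on the knockdown arrays, against 7.83 and 7.77 on the induced arrays and 7.71 and 7.99 on the arrays of cells not induced. Both knockdown arrays lay above all 4 mock arrays, by 0.22 at the nearest, and the cells not induced spread the most. The log2 fold change of the knockdown was 0.38 against cells not induced (SE 0.11, 95% interval 0.14 to 0.62, limma adjusted p = 0.0271), or 1.30-fold. Against induced cells it was 0.43 (limma adjusted p = 0.016). The fold change against cells not induced depends on them: without replicate 1 of that group it was 0.24, with adjusted p = 0.0986 by limma. The call was also lost without knockdown replicate 1 (limma adjusted p = 0.145) or 2 (0.0975). Against induced cells it was lost without any of the 4 arrays compared (0.39 to 0.46, limma adjusted p = 0.0607 to 0.104), and against cells not induced without the intensity trend in the variance prior (limma adjusted p = 0.0582). The KRT8 probe set is of a kind that can pick up related transcripts, and keratin genes are close in sequence. Those of VIM, EPCAM and several other genes named below carry this limit too.

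KRT19 read 5.72 and 6.02 on the knockdown arrays, against 6.71 and 6.60 on the induced arrays and 6.29 and 6.63 on the arrays of cells not induced. The knockdown arrays were the lowest of the 6, with a gap of 0.27 to the nearest mock array. The gene fell by 0.59 relative to cells not induced (SE 0.16, 95% interval -0.95 to -0.23, limma adjusted p = 0.0214), which leaves 66.4% of that level. Relative to induced cells it fell by 0.79, to 58.0% (limma adjusted p = 0.0055). KRT19 is unusual among keratins in lacking most of the tail domain. Its call against cells not induced was lost without replicate 2 of that group (-0.43, limma adjusted p = 0.109) and without knockdown replicate 1 (-0.44, limma adjusted p = 0.158), and that against induced cells without knockdown replicate 1 (-0.63, limma adjusted p = 0.0573).

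VIM changed the least. It read 12.47 and 12.38 on the knockdown arrays, against 12.59 and 12.61 on the induced arrays and 12.56 and 12.65 on the arrays of cells not induced. The knockdown arrays were again lowest, but the gap to the nearest mock array was 0.09, about the distance between the arrays within the knockdown and within the cells not induced. VIM fell by 0.18 relative to cells not induced (SE 0.04, 95% interval -0.28 to -0.08, limma adjusted p = 0.0121), which leaves 88.2% of the level, and by 0.18 relative to induced cells (limma adjusted p = 0.0137). The VIM call depends on the processing. It was lost against both mock groups with quantile normalization (-0.13, limma adjusted p = 0.0586 and 0.0646), without the intensity trend in the variance prior (limma adjusted p = 0.171 and 0.181) and without knockdown replicate 2 (limma adjusted p = 0.0962 and 0.105). It was also lost against cells not induced without replicate 2 of that group (-0.14, limma adjusted p = 0.0673), and against induced cells with arrays centred on their medians (-0.14, limma adjusted p = 0.0522) and without either induced array.

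EPCAM read 10.69 and 10.76 on the knockdown arrays, against 10.36 and 10.31 on the induced arrays and 10.51 and 10.38 on the arrays of cells not induced. The knockdown arrays were the highest, 0.18 above the nearest mock array. The log2 fold change was 0.28 against cells not induced (SE 0.06, 95% interval 0.14 to 0.42, limma adjusted p = 0.0085), or 1.21-fold. Against induced cells it was 0.39 (95% interval 0.26 to 0.53, limma adjusted p = 0.0015), or 1.31-fold, and this call held under all 14 alternatives run. Against cells not induced it was lost without knockdown replicate 2 (0.24, limma adjusted p = 0.0753) and without the intensity trend (limma adjusted p = 0.0686).

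CD44 changed the most of the 5 against cells not induced. It read 4.93 and 4.77 on the knockdown arrays, against 5.41 and 5.36 on the induced arrays and 5.66 and 5.61 on the arrays of cells not induced. No array of any group overlapped another group, and the induced arrays lay between the others. CD44 fell by 0.79 relative to cells not induced (SE 0.16, 95% interval -1.14 to -0.43, limma adjusted p = 0.0053), which leaves 57.9% of that level. Relative to induced cells it fell by 0.54, to 68.9% (95% interval -0.89 to -0.18, limma adjusted p = 0.0304). The first was called under all 13 alternatives in which the gene was tested. The other call was lost when any of the 4 arrays compared was left out (limma adjusted p = 0.0677 to 0.141). The knockdown values lie under 5, near the bottom of the scale, where the background model has most influence, and CD44 is in the table through the 4 mock arrays. Nearly all probe sets in the table lie above 5 on at least 2 arrays, so a gene under 5 on both knockdown arrays had to be higher on some mock arrays to be there. The call of CD44 and its stability are therefore no support for a fall of its own.

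**Figure D1:**
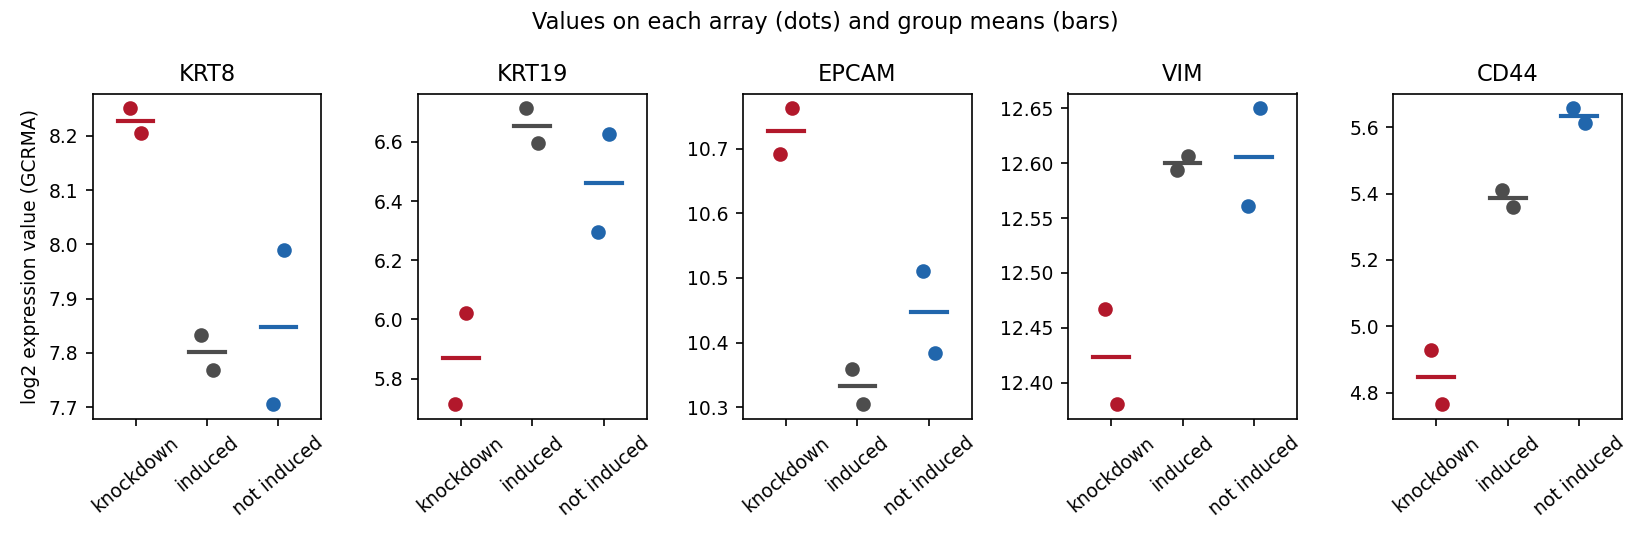
Log2 expression value of each of the 5 genes on each array (dots) with the mean of each group (bars), for knockdown, induced and not induced cells from left to right. Each panel has a scale of its own that does not start at 0. The knockdown arrays lie above all 4 mock arrays for KRT8 and EPCAM and below them for KRT19, VIM and CD44.

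For all 5 genes the knockdown arrays lay apart from all 4 mock arrays, which was also true of 53.1% of all genes tested. The comparison with induced cells called 5 of 5 as well, beside 28.4% of all genes (14.0% higher and 14.5% lower). The comparisons share the knockdown arrays and are not independent, and CD44 is counted in each with the limit given above. Of all genes, 23.4% were called against both mock groups in the same direction. The size of change ran from 0.18 for VIM to 0.79 for CD44 in the comparison with cells not induced. None of the 5 reached a 2-fold change against either mock group.

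**Figure D2:**
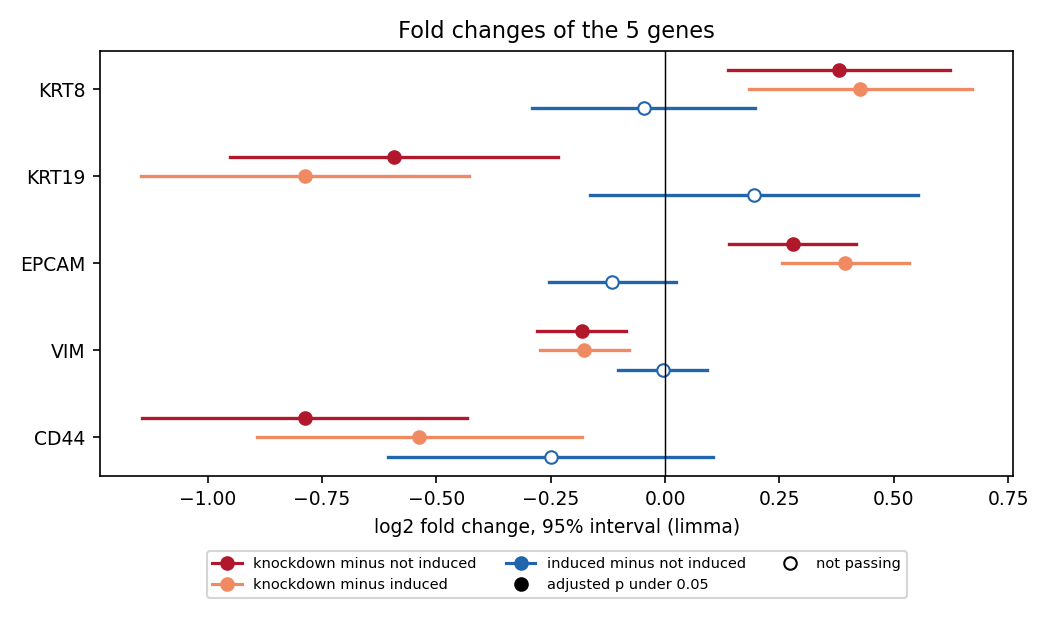
Log2 fold changes of the 5 genes with 95% intervals from limma, for the knockdown against each mock group and for induced against not induced cells. Filled symbols passed an adjusted p under 0.05. The intervals of both knockdown comparisons leave out 0 for every gene, and those of the induction comparison all include it.

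Induction of the tagged LIN28B was compared in mock-transfected cells. LIN28B itself was 0.19 higher in induced cells (95% interval 0.02 to 0.37, limma adjusted p = 0.999) and was not called. These arrays therefore do not show how far LIN28B was raised, and the values below cannot be read as a response to a known rise. Of the 5 genes 0 were called, beside 0% of all genes tested by limma. Across all genes 344, or 2.97%, had an unadjusted p under 0.05, and 0 of the 5 members did. The largest difference was that of CD44, -0.25 (95% interval -0.61 to 0.10, limma adjusted p = 0.999). KRT19 had 0.19 (95% interval -0.16 to 0.55) and EPCAM -0.11 (-0.25 to 0.02). KRT8 had -0.05 (-0.29 to 0.20) and VIM -0.01 (-0.10 to 0.09). The VIM interval is the narrowest of the 5, and those of KRT19 and CD44 are the widest.

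In order of level, KRT8 was highest in the knockdown, with no difference passing between cells not induced and induced cells. EPCAM followed the same order. KRT19 was highest in induced cells and lowest in the knockdown, and the mock groups did not differ beyond their spread. VIM had near equal means in both mock groups, 12.60 ± 0.01 in induced cells and 12.61 ± 0.06 in cells not induced (SD, n = 2 each), with 12.42 ± 0.06 in the knockdown. CD44 was lowest in the knockdown, at 4.85 ± 0.12, with 5.39 ± 0.04 in induced cells and 5.64 ± 0.03 in cells not induced. For CD44 the mock groups differed by more than the SD of either, yet limma did not call it (unadjusted p = 0.147). In that comparison limma called 0 of all genes tested. Its SE for CD44, 0.16, draws also on the knockdown arrays and on the spread of other genes.

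The pattern of a gene over the 6 arrays, with its mean removed, was compared between genes by the root mean square difference in log2 units. Between the 5 genes themselves this difference was smallest for KRT8 and EPCAM (0.130) and largest for KRT8 and KRT19 (0.534). Among all other genes, those nearest to KRT8 were KIF1B, BSDC1 and PHC1, at 0.021 to 0.035. KIF1B, a kinesin motor gene, shares with KRT8 a low replicate 1 and a higher replicate 2 among the cells not induced (8.22 and 8.53). The nearest to KRT19 were CSPG5, HSPA12A and SND1-IT1 (0.059 to 0.067), and those nearest to EPCAM were POLE4, CD59 and NR2F1-AS1 (0.017 to 0.020). CD59, which protects cells from complement, read 9.49 and 9.53 in the knockdown, against 9.19 and 9.12 in induced cells and 9.30 and 9.18 in cells not induced. VIM was nearest to XPO6, PTGES2 and TUFM (0.013 to 0.019), and CD44 to TMEM170B, MNX1-AS1 and ARHGAP26 (0.046 to 0.067). TMEM170B had the same order of groups as CD44, with 6.84 and 6.60 in the knockdown, 7.29 and 7.14 in induced cells and 7.51 and 7.51 in cells not induced. These genes were picked as the nearest of all and their likeness has no test.

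The stretch just before a start site is shown for CD44, VIM and KRT8, because promoter elements named below are those usually discussed for such genes. The windows are not compared by direction of change, since the calls of these genes are limited as given above. The arrays measure transcripts and not promoters. The sequences are the 200 bases upstream of 1 RefSeq start site per gene in GRCh38.p14, the first listed, read along the gene. Other start sites, where a gene has them, were not read. Whether these cells use the site shown was not tested. Capitals mark GGGCGG or its reverse complement CCGCCC, the GC box bound by SP1-type factors.
CD44 (chr11:35138971-35139170, plus strand): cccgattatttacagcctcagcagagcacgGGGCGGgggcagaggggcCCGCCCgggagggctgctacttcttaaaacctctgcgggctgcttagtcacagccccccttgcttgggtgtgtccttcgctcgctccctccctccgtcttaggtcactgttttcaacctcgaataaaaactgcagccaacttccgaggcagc
VIM (chr10:17228041-17228240, plus strand): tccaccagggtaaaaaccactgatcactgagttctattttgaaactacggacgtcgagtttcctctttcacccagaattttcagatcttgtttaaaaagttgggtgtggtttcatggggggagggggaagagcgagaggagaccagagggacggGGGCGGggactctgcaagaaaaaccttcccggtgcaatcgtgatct
KRT8 (chr12:52926470-52926669, minus strand): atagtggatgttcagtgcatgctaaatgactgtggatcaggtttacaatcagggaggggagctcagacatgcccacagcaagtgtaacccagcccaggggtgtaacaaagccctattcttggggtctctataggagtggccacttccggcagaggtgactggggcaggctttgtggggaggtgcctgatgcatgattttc
CD44 holds 2 GC boxes, which begin at positions -170 and -152, VIM holds 1, at -46, and KRT8 holds 0. Of 35116 promoter windows of the same length, 40.1% hold at least 1. CACCTG and its reverse complement CAGGTG, the E-box letters that SNAI and ZEB repressors recognise, are in 0 of the 3 windows and in 14.2% of all. The GC content was 60.0% for CD44, 50.0% for VIM and 53.0% for KRT8, beside a median of 59.0% over all windows. A match or its absence describes these letters in this window and no more. KRT19 and EPCAM were not matched in the promoter table.

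Among 23 intermediate filament genes listed, 13 were in the table. In the knockdown 2 rose, 3 fell and 8 did not pass against cells not induced, with a median log2 fold change of 0.06, beside 0.01 over all genes tested. The called share was 38.5%, beside 28.0% of all genes, and rests partly on the members themselves. KRT8, KRT19 and VIM are 3 of these. The other genes called encode filament proteins of neurons. INA, alpha-internexin, read 9.35 and 9.13 on the knockdown arrays, against 8.57 and 8.59 on the induced arrays and 8.49 and 8.54 on the arrays of cells not induced, a difference of 0.73 on the log2 scale (SE 0.09, limma adjusted p = 0.000423). NEFL, the neurofilament light chain, read 9.92 and 9.97, against 10.63 and 10.60 in induced cells and 10.53 and 10.54 in cells not induced, and fell by 0.59 (SE 0.05, limma adjusted p = 0.000113). Both calls held under all 14 alternatives. For both genes the knockdown arrays lay apart from all mock arrays, and INA and NEFL, which coassemble in neurons, moved in opposite directions.

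KRT18, the usual partner of KRT8, was picked after its value was seen. It read 10.02 and 10.00 on the knockdown arrays, against 10.01 and 10.02 on the induced arrays and 9.94 and 10.03 on the arrays of cells not induced. Its log2 fold change was 0.03 (95% interval -0.11 to 0.16, limma adjusted p = 0.795), and the groups overlap. The KRT8 interval begins at 0.14 and the KRT18 interval ends at 0.16. The difference between these genes was not tested. The KRT18 probe set too can pick up related transcripts.

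**Figure D3:**
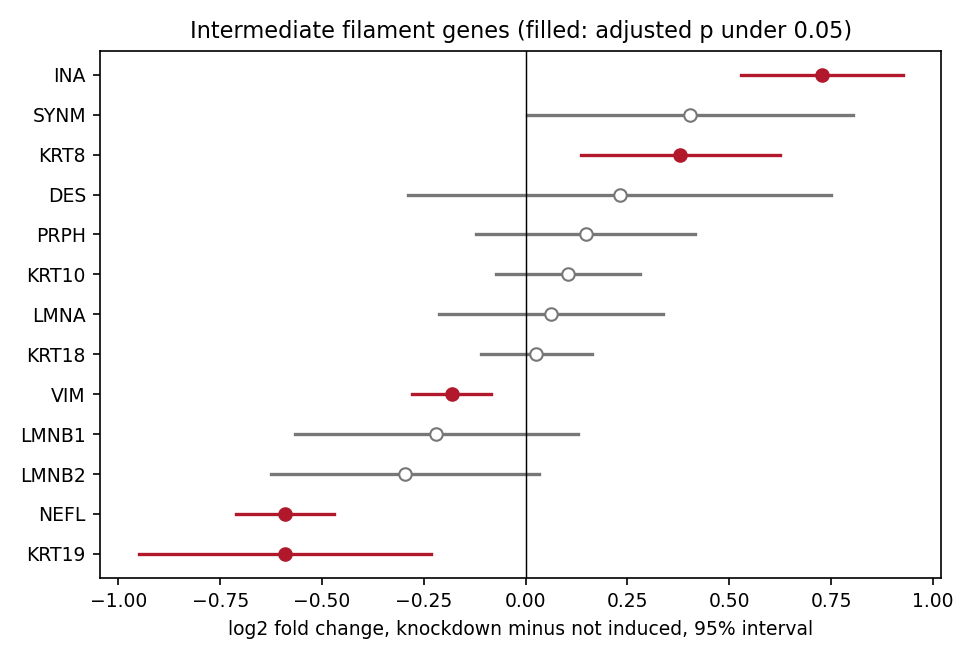
Log2 fold changes, knockdown minus not induced, with 95% intervals, of the 13 intermediate filament genes in the table, ordered by size. INA and KRT8 rose, VIM, NEFL and KRT19 fell, and the open symbols did not pass.

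Plakins and desmosomal plaque proteins tie filaments to junctions. Of 18 such genes listed, 14 were in the table, of which 0 rose and 3 fell (21.4% called, below the 28.0% of all genes, median -0.05). PKP4, a plakophilin-related armadillo protein of junctions, read 6.52 and 6.52 in the knockdown, against 7.16 and 6.99 in induced cells and 7.06 and 7.20 in cells not induced, and fell by 0.61 (SE 0.12, limma adjusted p = 0.00427). Desmosomal PKP2 fell by 0.44 (limma adjusted p = 0.011) and DSP, desmoplakin, the plakin that anchors keratin at desmosomes, by 0.32 (limma adjusted p = 0.0207). Without either knockdown array the PKP2 and DSP calls were lost. That of DSP was also lost without replicate 2 of the cells not induced (-0.19) and without the intensity trend.

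Among 32 genes of cadherin, tight junction and nectin adhesion, 19 were in the table, with 2 higher, 3 lower and 14 not passing (26.3% called, near the 28.0% of all genes, median -0.10). CDH3, P-cadherin, read 6.56 and 6.58 in the knockdown, against 7.55 and 7.25 in induced cells and 7.50 and 7.42 in cells not induced. It fell by 0.89 (SE 0.12, limma adjusted p = 0.000802) and kept its call under all 14 alternatives. The claudin gene CLDN15 fell by 0.43 and MARVELD2, which encodes tricellulin of tricellular junctions, by 0.41. The claudin gene CLDN12 had a log2 fold change of 0.46 and AFDN, the nectin-binding adaptor afadin, 0.25 (limma adjusted p = 0.0346). CLDN12 and CLDN15 lost their calls without knockdown replicate 1 or replicate 2 of the cells not induced, MARVELD2 without knockdown replicate 1, and AFDN under 8 of 14 alternatives. AFDN has more than 1 probe set, and their mean gives 0.71. E-cadherin, CDH1, and the EPCAM-binding claudin gene CLDN7 were not analysed here.

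Of 18 genes of EPCAM cleavage and signalling listed, 16 were in the table, and 3 rose, 1 fell and 12 did not pass (median 0.09), a called share below the 28.0% of all genes. SPINT2, a membrane inhibitor of serine proteases, read 9.68 and 9.52 in the knockdown, against 8.85 and 8.93 in induced cells and 8.98 and 8.88 in cells not induced, a difference of 0.67 on the log2 scale (SE 0.08, limma adjusted p = 0.000436). FHL2, a LIM protein that binds the EPCAM signalling fragment, had 0.50 (limma adjusted p = 0.00222) and PSENEN, a subunit of the gamma-secretase that frees this fragment, had 0.34 (limma adjusted p = 0.00381). These calls held under all 14 alternatives. BACE2, a membrane protease, fell by 0.46 (limma adjusted p = 0.00678), a call lost without knockdown replicate 1.

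Around CD44, 25 genes of its ligands, membrane linkers, cleavage and splicing were listed and 17 were in the table. Of these 0 rose, 2 fell and 15 did not pass (11.8% called, below the 28.0% of all genes, median 0.01). ANK3, ankyrin G, a membrane skeleton adaptor, read 7.18 and 7.30 in the knockdown, against 8.06 and 7.86 in induced cells and 7.98 and 7.83 in cells not induced. It fell by 0.66 (SE 0.11, limma adjusted p = 0.00208), under all 14 alternatives. The ANK3 probe set too can pick up related transcripts. SRRM1, a splicing coactivator described as promoting inclusion of CD44 variable exons, fell by 0.36 (limma adjusted p = 0.00539), a call lost without knockdown replicate 2. The probe set of CD44 gives a single value and does not separate its splice forms.

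Of 16 transcription factors of the epithelial to mesenchymal transition listed, 11 were in the table. Of these, 1 rose, 0 fell and 10 did not pass (9.09% called, below the 28.0% of all genes, median 0.13). Of those that did not pass, ZEB2 had a log2 fold change of 0.52 (95% interval 0.09 to 0.95), FOXQ1 -0.39 (-0.68 to -0.09) and ZEB1 -0.25 (-0.49 to -0.01). These 3 were chosen after their values were seen. TCF4, an E-box binding factor, had a log2 fold change of 0.35 (limma adjusted p = 0.0205), lost without either knockdown array or replicate 2 of the cells not induced. Of 13 epithelial transcription factors, 4 were in the table, and KLF4 fell by 0.68 (SE 0.13, limma adjusted p = 0.00391). KLF4 read 6.07 and 6.27 in the knockdown, against 6.58 and 6.58 in induced cells and 6.77 and 6.93 in cells not induced, and kept its call under all 14 alternatives.

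Mesenchymal genes other than VIM and CD44 moved in both directions. Of 30 listed, 17 were in the table, with 4 higher, 3 lower and 10 not passing (41.2% called, beside 28.0% of all genes, median 0.14). The share counts COL5A1, MMP2 and COL6A1, which are limited as given below, so it is no support for an excess. Among those not passing, the marker genes CDH2 and FN1 had -0.23 (limma adjusted p = 0.104) and 0.14 (limma adjusted p = 0.299). COL5A1, a fibrillar collagen gene, read 4.70 and 4.81 in the knockdown, against 5.67 and 5.93 in induced cells and 5.50 and 5.86 in cells not induced, and fell by 0.92 (SE 0.18, limma adjusted p = 0.00479). MMP2, a matrix metalloproteinase gene, read 5.61 and 5.80 in the knockdown, against 4.76 and 5.05 in induced cells and 4.92 and 4.77 in cells not induced, a log2 fold change of 0.86 (limma adjusted p = 0.00636). ITGAV, the integrin alpha V subunit, had 0.71 (SE 0.09, limma adjusted p = 0.000461) and COL5A2, another fibrillar collagen gene, 0.67 (limma adjusted p = 0.0117). COL5A1 lay under 5 on both knockdown arrays and above it on all mock arrays, and MMP2 lay above 5 on 1 mock array. To be in the table, COL5A1 had to be higher on some mock arrays and MMP2 on some knockdown arrays, so their calls are no support for a change. COL6A1, a collagen gene counted among those lower (limma adjusted p = 0.0487), lost its call under 10 of 14 alternatives. ITGAV kept its call under every alternative, while MMP2 lost its call without knockdown replicate 2 and COL5A2 without that array or replicate 2 of the cells not induced.

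**Figure D4:**
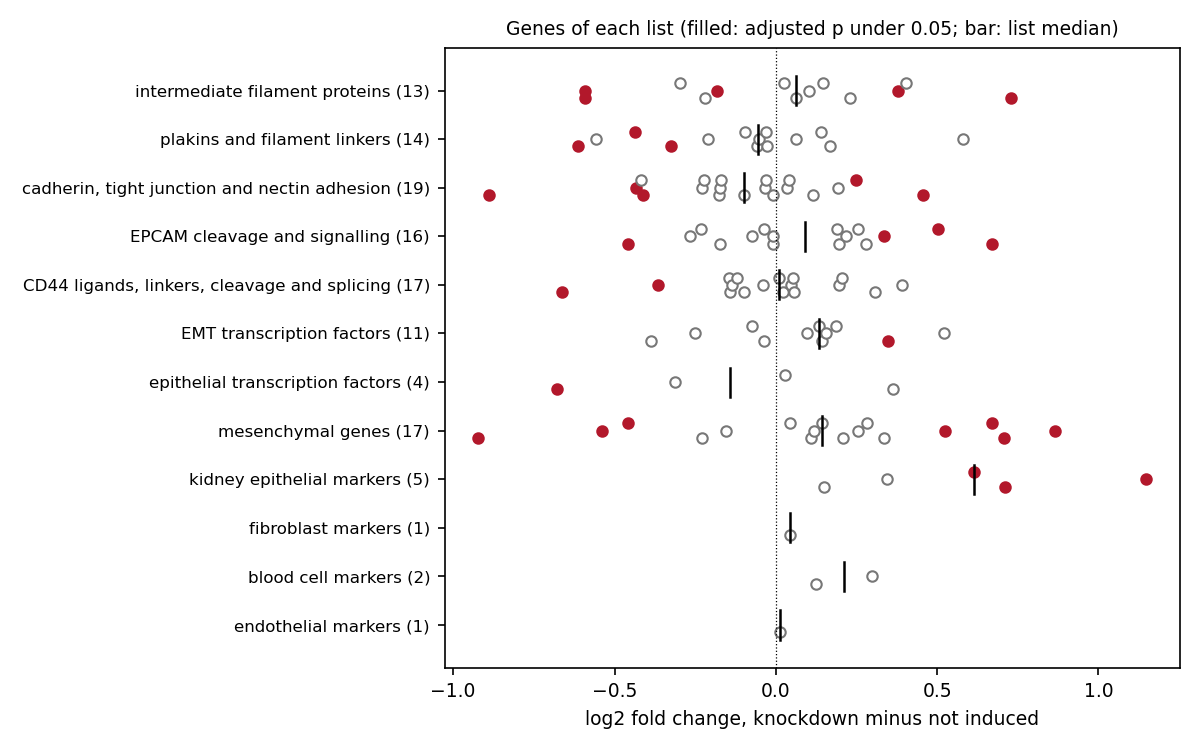
Log2 fold changes, knockdown minus not induced, of the genes of each list that were in the table, whose number is given in brackets. Filled symbols passed an adjusted p under 0.05, and the bar is the list's median. Called genes lie on both sides of 0 in the filament, adhesion, EPCAM and mesenchymal lists.

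Markers of the labelled origin and of other cell types were read as well. Of 12 kidney epithelial and progenitor markers, 5 were in the table, and 3 rose, 0 fell and 2 did not pass. The called share was 60.0%, beside 28.0% of all genes (13.5% higher). It rests on few genes and includes LHX1, which is limited as given below. Those not passing were PAX8 (0.35, limma adjusted p = 0.0921) and WT1 (0.15, limma adjusted p = 0.361), transcription factors of kidney development. SIX2, a factor of nephron progenitors, read 6.21 and 6.05 in the knockdown, against 5.16 and 5.09 in induced cells and 4.86 and 5.11 in cells not induced, a difference of 1.15 on the log2 scale (SE 0.16, limma adjusted p = 0.000958). LHX1, a factor of the early nephron, had 0.71 (limma adjusted p = 0.0247) and LRP2, the endocytic receptor megalin of the proximal tubule, 0.61 (limma adjusted p = 0.00916). LHX1 lay under 5 on all 4 mock arrays and is in the table through the knockdown arrays, so that it had to be higher there. Its call was lost without knockdown replicate 1 (0.45) or either array of the cells not induced, and that of LRP2 without knockdown replicate 2. Of 9 fibroblast markers 1 was in the table, COL1A1, with summed log2 values of 6.04 to 6.28 in the knockdown, 5.96 to 6.10 in induced cells and 5.98 to 6.25 in cells not induced. Of 9 blood cell markers 2 were, CD79A and HBB, with 10.45 to 10.50 in the knockdown, 10.10 to 10.35 in induced cells and 9.95 to 10.16 in cells not induced. Of 6 endothelial markers 1 was, CLDN5, with 5.06 to 5.26, 4.92 to 5.38 and 4.93 to 5.37 in the same order of groups. Of these 4 genes 0 were called, and their part in the results was not tested.

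**Figure D5:**
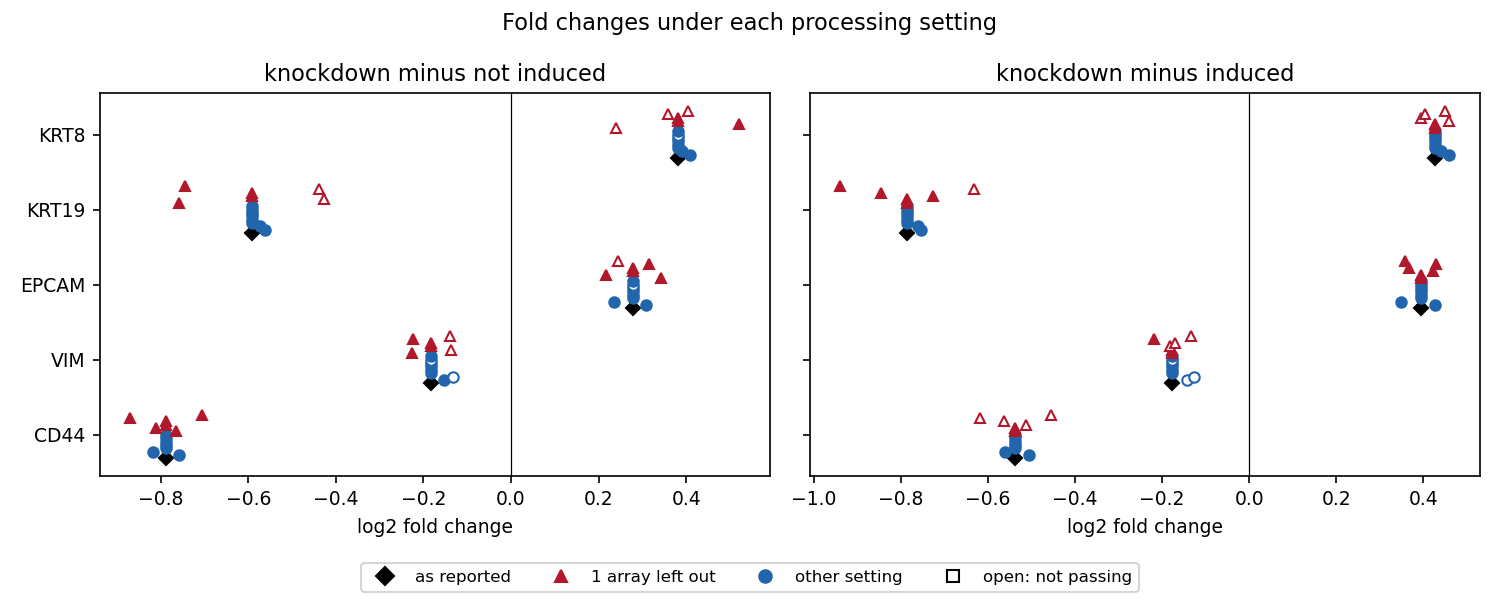
Log2 fold changes of the 5 genes in the knockdown against each mock group under each processing setting, with the reported value (diamonds), settings that leave out 1 array (triangles) and other settings (circles). Open symbols did not pass an adjusted p under 0.05. The direction of every gene is the same under every setting drawn, and open symbols are most frequent for VIM and KRT8.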

How the data were processed

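Total RNA, 2 µg per sample, was labelled with biotin and hybridised to 6 arrays, per the labels' protocols. The deposited values are on a log2 scale, 1 for each probe set and array, made with affy and GCRMA per the submitters' processing notes, which give no version. GCRMA corrects background by probe sequence, brings arrays to a common distribution and summarises probes. The log base was not stated and was taken as 2, which GCRMA returns. Centring is not stated either, and a higher value was taken as a higher level, which the LIN28B values bear out. Induction used 250 ng/ml doxycycline for 15 to 20 h in the crosslinking experiments, per the labels' protocols, with no time stated for the array samples. The table holds 13008 probe sets, part of the array. How they were chosen is not stated, and 13007 lie above 5 on at least 2 arrays.

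Symbols came from the platform annotation, updated through RefSeq (GRCh38.p14). Of the probe sets 11719 had 1 symbol, 609 several and 680 none, and those with 1 symbol stood for 11584 genes, with the highest-mean probe set kept. A filter (above 4 on at least 2 arrays) removed 0. The tests used limma 3.58.1 under R 4.3.3 (lmFit, then eBayes with an intensity trend, all 6 arrays in 1 model of 3 groups, 3 residual and 6.73 prior degrees of freedom), with two-sided tests and Benjamini-Hochberg adjustment over all genes. The script was tested on simulated data. SDs are over 2 arrays, and the number of arrays limits precision. The members and lists were chosen with earlier results of these data known. Named genes were the members, LIN28B, up to 4 called genes of largest change per list (all, where 6 or fewer were called; where none was called, 2 as values) and the 3 genes nearest in pattern to each member. Named outside this rule were KRT18, PAX8, WT1, ZEB1, ZEB2, FOXQ1, CDH2, FN1, COL6A1 and the integrin and tetraspanin genes of the other observations. Their values were known when they were named. Same-numbered arrays were checked for pairing. Alternatives were scaling, filters, probe sets, arrays in the fit, variance prior, replicate block and leaving out each array.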

Additional observations from a re-analysis of the deposited data

How the results depend on the processing

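In both knockdown comparisons the direction of each of the 5 genes was the same under every alternative in which it was tested. The number of all genes called moved by over 1.5 times when an array was left out: against cells not induced it was 3242, and 1664 to 3143 with 1 array left out, with 1664 without knockdown replicate 1 and 1975 without replicate 2. Against induced cells it was 3295, and 1702 to 3951 with 1 array left out, with 1702 and 2068 without knockdown replicates 1 and 2 and 1928 and 1811 without induced replicates 1 and 2. In such a fit a lone array borrows its spread from the other groups. Of the 5 members, 2 to 5 kept their call in these fits. For induced against not induced cells the number was 0, and 0 to 1 with 1 array left out, with 1 gene lower without replicate 2 of the cells not induced. Signs turned for uncalled values only. With 1 array left out, the induction comparison ran from -0.188 to 0.094 for KRT8 and from -0.050 to 0.039 for VIM (0.00052 without induced replicate 1). The knockdown against cells not induced ran from -0.096 to 0.18 for COL1A1, from -0.206 to 0.235 for CLDN5 (-0.023 with quantile normalization) and from -0.023 to 0.075 for KRT18. Deviations of same-numbered arrays correlated at -0.06 to 0.18, which shows no strong pairing by replicate number. With 2 arrays a group this cannot settle whether the arrays were paired. With the replicate number as a block 3422 genes were called against cells not induced, 3491 against induced cells and 0 in the induction comparison, and the block ended the call of none of the 5 members. CD44 has a mean under 6 and was not tested with the stricter filter. Where a value moved, the cause was not tested.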

Other observations

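Other adhesion receptors were read by family name, a choice made after the values of ITGAV and ITGB1 were seen, so their counts carry no test of the family. Of 13 integrin subunit genes in the table, 2 rose and 3 fell in the knockdown against cells not induced (38.5% called, beside 28.0% of all genes). The share counts ITGA2 and ITGA1, which are limited as given below. ITGAV and ITGB1, the alpha V and beta 1 subunits, had log2 fold changes of 0.71 and 0.52 (limma adjusted p = 0.000461 and 0.00174). The alpha subunit genes ITGA2, ITGA4 and ITGA1, whose proteins all pair with beta 1, fell by 0.98, 0.91 and 0.78 (limma adjusted p = 0.00221, 0.00101 and 0.0134). ITGA2, a collagen receptor subunit, read 4.82 and 4.89 in the knockdown, against 6.02 and 5.69 in induced cells and 5.89 and 5.77 in cells not induced. ITGB1 read 9.34 and 9.29 in the knockdown, against 8.86 and 8.74 in induced cells and 8.87 and 8.71 in cells not induced. ITGA2 lay under 5 on both knockdown arrays and is in the table through the mock arrays, so that it had to be higher on some of them. ITGA1 lay above 5 on 1 knockdown array, so that it too had to be higher on some mock arrays. The calls of ITGA2 and ITGA1 are therefore no support for a fall. The calls of ITGAV, ITGB1 and ITGA4 held under every alternative in which they were tested, and that of ITGA1 was lost without replicate 1 of the knockdown or of the cells not induced.

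Tetraspanins are membrane organisers with which EPCAM and integrins associate. Of 22 such genes in the table, 3 rose and 2 fell (22.7% called, below the 28.0% of all genes). TSPAN7 read 5.58 and 5.28 in the knockdown, against 6.44 and 6.77 in induced cells and 6.76 and 6.78 in cells not induced, and fell by 1.34 (SE 0.16, limma adjusted p = 0.000346). TSPAN6 had a log2 fold change of 0.45 (limma adjusted p = 0.00053) and CD63, a marker of late endosomes, 0.29 (limma adjusted p = 0.00338, and 0.0521 without the intensity trend). TSPAN15 had 0.76 (limma adjusted p = 0.0294) and TSPAN2 had -0.77 (limma adjusted p = 0.0224). TSPAN15 lost its call without the intensity trend and without replicate 2 of the knockdown (0.54) or of the cells not induced (0.40). TSPAN2 lost its call without replicate 1 of either group. TSPAN2 too lay under 5 on both knockdown arrays and is in the table through mock arrays. Its call, which the share counts, is therefore no support for a fall.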
